A study of Drosophila melanogaster with 5 samples.

Results

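Glial marker genes were examined in single cells harvested from the pars intercerebralis (PI), a neurosecretory center of the dorsal fly brain that relays circadian signals. The genes were *repo*, *nrv2* and *Gs2* as pan-glial genes, *alrm*, *Eaat1* and *Gat* as genes of astrocyte-like glia, *wrapper* for cortex glia, *moody* for surface glia, and *Indy* and *e*, which are used by glia but are well known outside them. They were chosen by FlyBase symbol, and all 10 were matched to a gene among the 17453 gene identifiers of the count tables. The data set held 5 libraries, each of 1 GFP-labeled PI cell. Cells 1 to 4 are those that were kept for analysis. Cell D was discarded by the study because its reads mapped without selectivity. The cells came from flies that carried the Dilp2mCherry landmark together with either kurs58-GAL4 and UAS-mCD8::GFP or C767-GAL4 and UAS-nlsGFP, and were picked as GFP-positive cells beside, but not among, the mCherry-labeled insulin cells. Neither driver is limited to the PI. Which cell came from which genotype, and the age of the flies, are not given in the sources used here. By the labels the 5 cells came from 5 animals, but the design text counts 4 animals.

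Glia of the fly brain fall into types that divide the tissue between them. Surface glia form the blood-brain barrier, cortex glia wrap neuronal cell bodies, and astrocyte-like and ensheathing glia occupy and border the neuropil, where they clear and recycle transmitters. The homeodomain factor Repo is the standard marker of nearly all of them and is not made by mature neurons. A neuronal cell body in the PI is therefore surrounded by cortex glia and lies under the surface glia of the dorsal brain. The harvested cell and any other RNA drawn into the same pipet tip cannot be told apart in these libraries.

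Reads assigned to genes numbered 3451331 to 4441952 in the kept cells and 4913151 in cell D. Expression is given as log2(RPM + 1), where RPM is reads per 1000000 reads assigned to genes, and a gene was taken as expressed from 1 RPM. A count of 0 allows a true level of up to 3 reads by the one-sided convention, or 0.675 to 0.869 RPM in the kept cells and 0.611 RPM in cell D. Intervals are two-sided exact Poisson 95% intervals of the reads of 1 gene in 1 cell. For a count of 0 they reach higher, to 1.07 RPM in cell 2, so that 0 reads there did not exclude the threshold. They cover counting error only, since amplification ran over 3 rounds. The libraries did not all match the label of a PI neuron equally well. The pan-neuronal gene *elav* had 1 read in cell 1 and 88 to 423 in cells 2 to 4, against 3316 in cell D. Not all neuronal genes were that low in cell 1, where *nSyb* had 367 reads and *cpx* 2689. The peptide gene *Dh44* took up 538167 reads in cell 3 and 436 to 761 in the other kept cells, against 1871 in cell D. There was 1 condition and no comparison group, so no test between groups was run. With 4 kept cells and 1 discarded cell, an exact permutation test could not go below p = 0.2.

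Every one of the 10 genes reached 1 RPM in at least 1 kept cell, compared with 44.3% of all gene identifiers. In at least 2 kept cells there were 7, compared with 32.9% of all identifiers. In all 4 kept cells there were 4, compared with 11.3%, and these were *Gs2*, *Eaat1*, *nrv2* and *moody*. Cell 3 set this last number, since without it the count was 7. By cell, 7 of the 10 genes were at or above the threshold in cell 1 (23.7% of all identifiers), 9 in cell 2 (34.5%), 4 in cell 3 (17.7%) and 8 in cell 4 (35.1%). Cell D had all 10 (40.7%). At 100 RPM, 6 genes were found in at least 1 kept cell, compared with 14.5% of all identifiers. Only *Gs2* and *Eaat1* were at that level in all 4 kept cells, compared with 2.42%.

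**Figure D1:**
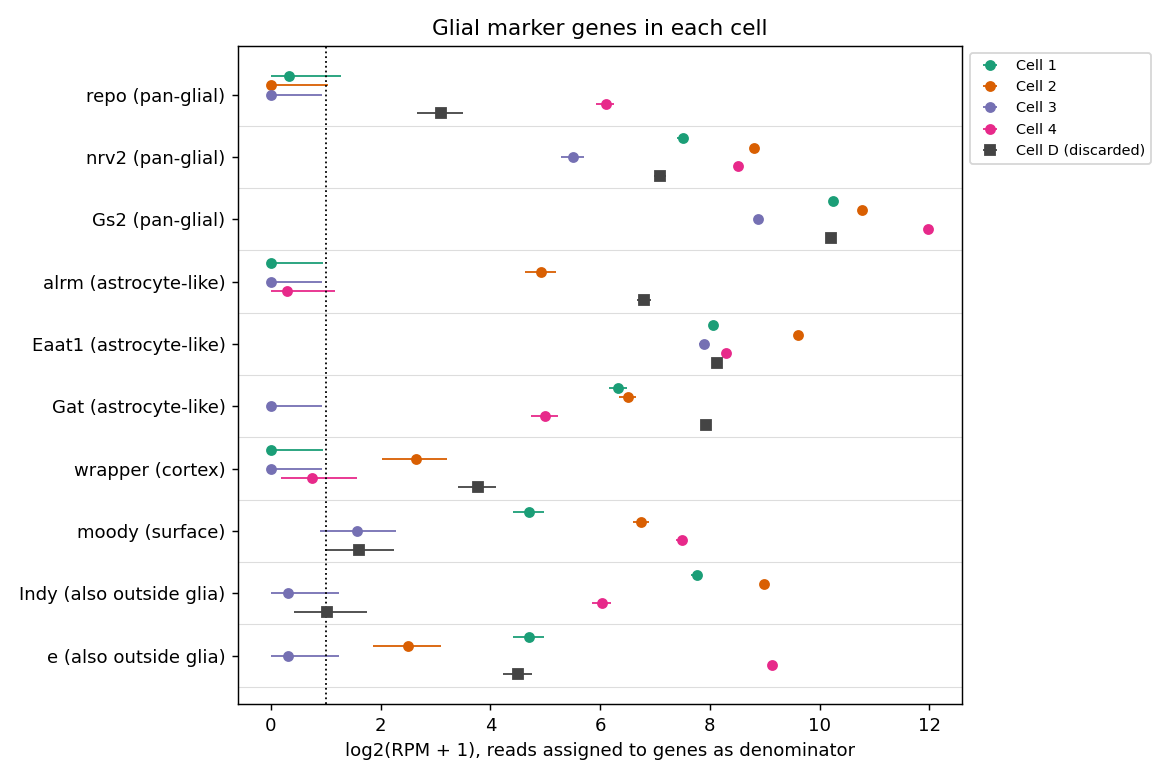
Expression of each glial marker gene as log2(RPM + 1) on the horizontal axis, with 1 row per gene and 1 point per cell; bars are exact Poisson 95% intervals and the dotted line marks 1 RPM. *Gs2*, *Eaat1* and *nrv2* lie at 5.50 or above in all cells, while *repo*, *alrm* and *wrapper* lie under the line in 3 of the 4 kept cells.

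Among the pan-glial genes, *Gs2* was the most abundant. It encodes cytosolic glutamine synthetase, which turns glutamate taken up by glia into glutamine, and lies on chromosome X from 11422832 to 11430197 (FBgn0001145). It had 4777, 6074, 1916 and 17974 reads in cells 1 to 4, against 5825 in cell D. Its expression was 10.25, 10.78, 8.88 and 11.98 in cells 1 to 4, with a mean of 10.47 ± 1.29 (SD, n = 4), and 10.21 in cell D. Cell 4 stood highest and cell 3 lowest. The intervals of cell 1 (10.21 to 10.29) and cell D (10.18 to 10.25) overlapped, while those of every other neighboring pair in the order of levels did not. Per kb of exon, *Gs2* had 547, 789, 211 and 1814 RPM in cells 1 to 4 and 531 RPM in cell D. By this measure it ranked 72 of the 5976 genes at or above 1 RPM with an exon length in cell 4 and 351 of 3024 in cell 3, and it was the first of the glial marker genes in every cell.

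*nrv2* encodes a beta subunit of the sodium-potassium ATPase and is widely used to mark glia (chromosome 2L, 6789770 to 6798862, FBgn0015777). It had 706, 1532, 181 and 1625 reads in cells 1 to 4, against 667 in cell D. Expression was 7.50, 8.80, 5.50 and 8.52 in cells 1 to 4, with a mean of 7.58 ± 1.49 (SD, n = 4), and 7.10 in cell D. Again cell 3 was lowest, but here cell 2 was above cell 4, and no intervals of neighboring cells overlapped.

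*repo*, the defining gene of the group, behaved differently (chromosome 3R, 18236192 to 18239602, plus strand, FBgn0011701). Cell 4 had 300 reads of it, cell 1 a single read and cells 2 and 3 had 0, against 37 in cell D. Its expression was 6.10 in cell 4, with an interval of 5.93 to 6.26, and 3.09 in cell D, with an interval of 2.66 to 3.51. In cells 1, 2 and 3 it was below 1 RPM, although *Gs2* and *nrv2* were well above it in each. The mean over the kept cells was 1.61 ± 3.00 (SD, n = 4), which rests on cell 4.

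The count of *repo* was affected by its neighbor. The last 183 bp of *repo* overlap the 3' end of *CG7156*, which lies on the opposite strand from 18239420 to 18242159. Amplification placed most reads at 3' ends and the libraries kept no strand, so reads in the overlap could not be assigned to either gene and were left out of the count given above. MMQuant, which reports reads shared by a group of genes, gave *repo* alone 2, 4, 0 and 461 reads in cells 1 to 4, against 60 in cell D. Reads shared with *CG7156* were 23, 9, 1 and 225 in cells 1 to 4 and 84 in cell D. *CG7156* alone had 29, 0, 0 and 95 in cells 1 to 4 and 73 in cell D. MMQuant thus counted more reads for *repo* alone in cell 4 than the 300 given above, so its shared reads are not all reads of the overlap. By MMQuant, all 13 reads of the pair in cell 2 were of *repo* alone or shared, whereas in cell 1 *CG7156* alone held 53.7% of 54 reads. In cell 2, however, the unstranded count gave 0 reads to each gene, and the stranded counts summed to 13 for each. The 13 reads of cell 2 therefore do not tell the genes apart. With every shared read given to *repo*, its expression became 2.65, 1.94, 0.29 and 7.11 in cells 1 to 4, against 4.84 in cell D. By this count 3 kept cells were at or above 1 RPM in place of 1, with cell 3 still below. Which of the pair gave the shared reads was not tested. Among the other 9 genes, no group of genes held more than 1 shared read with any of them in any cell.

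**Figure D2:**
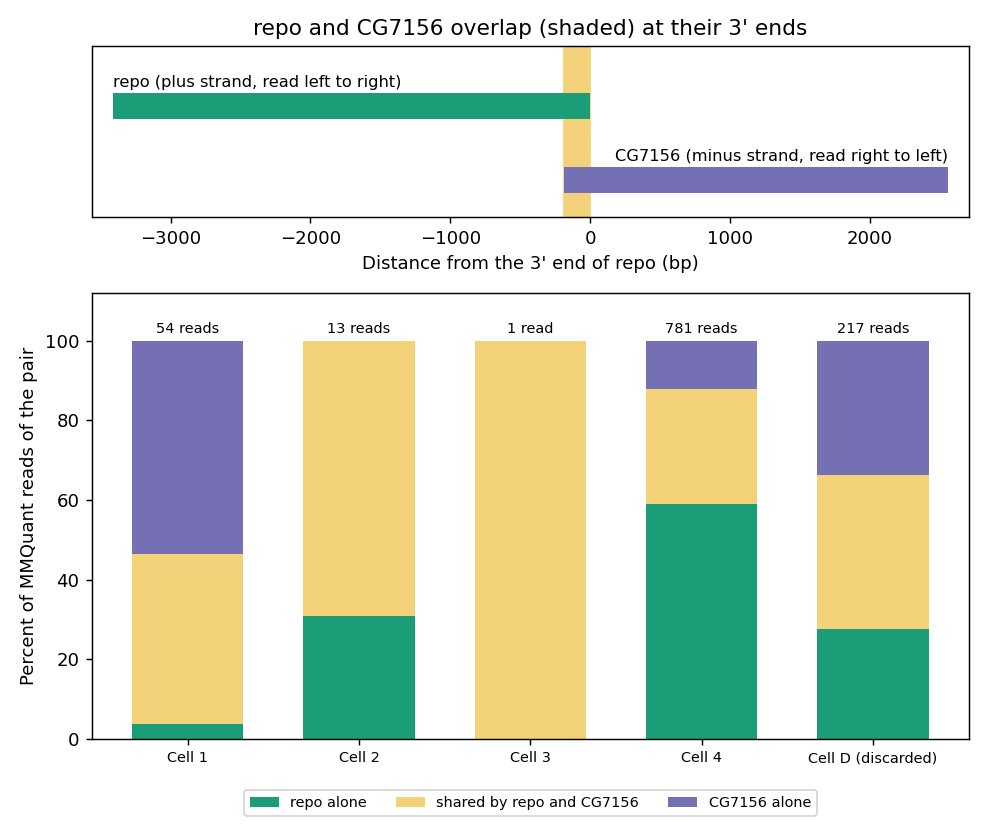
Upper panel: extent of *repo* and *CG7156* as bars to scale, in bp from the 3' end of *repo*, with the 183 bp overlap shaded. Lower panel: percent of the MMQuant reads of the pair given to *repo* alone, to both genes as shared and to *CG7156* alone in each cell, with the number of reads above each bar; *repo* alone held 59.0% in cell 4 and 3.70% in cell 1.

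The genes of astrocyte-like glia split into 1 that was found in every cell and 2 that were not. *Eaat1* encodes the high-affinity transporter by which glia clear glutamate (chromosome 2L, 9333567 to 9341925, FBgn0026439). It had 1046, 2694, 971 and 1393 reads in cells 1 to 4, against 1370 in cell D. Expression was 8.07, 9.61, 7.90 and 8.30 in cells 1 to 4, with a mean of 8.47 ± 0.78 (SD, n = 4), and 8.13 in cell D. This was the smallest spread of the 10 genes. The intervals of cells 1, 3 and D formed a chain of overlaps at the low end, and cell 2 stood above the rest.

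*Gat* encodes the GABA transporter of astrocyte-like glia and lies on chromosome 4 (629691 to 635350, FBgn0039915). It had 311, 309, 0 and 137 reads in cells 1 to 4, against 1191 in cell D. Expression was 6.33, 6.50, 0 and 4.99 in cells 1 to 4, with a mean of 4.46 ± 3.05 (SD, n = 4), and 7.93 in cell D. Cells 1 and 2 could not be separated by their intervals, and cell D was above all kept cells.

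*alrm* (astrocytic leucine-rich repeat molecule, chromosome 3R, 25381065 to 25382781, FBgn0039332) is the gene most particular to astrocyte-like glia. It had 0, 101, 0 and 1 reads in cells 1 to 4, against 544 in cell D. Its expression was 4.92 in cell 2, with an interval of 4.63 to 5.19, and 6.80 in cell D, with an interval of 6.68 to 6.92. Cell 4, which had the most *Gs2* and *repo*, had only the single read.

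*wrapper*, which encodes an immunoglobulin-family surface protein by which glia enwrap neurons, was the only gene listed for cortex glia (chromosome 2R, 22379637 to 22382675, FBgn0025878). It had the lowest mean of the set, 0.85 ± 1.24 (SD, n = 4), with 0, 18, 0 and 3 reads in cells 1 to 4, against 62 in cell D. The 18 reads of cell 2 gave 2.64 (2.03 to 3.21) and the 62 of cell D gave 3.77 (3.42 to 4.10). Cells 1, 3 and 4 were below the threshold, and their intervals overlapped.

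*moody* encodes a G-protein-coupled receptor that surface glia need for a tight blood-brain barrier (chromosome X, 2044292 to 2050120, FBgn0025631). It had 98, 368, 8 and 793 reads in cells 1 to 4, against 10 in cell D. Expression was 4.70, 6.75, 1.57 and 7.49 in cells 1 to 4, with a mean of 5.13 ± 2.65 (SD, n = 4), and 1.60 in cell D. Cells 3 and D overlapped at the low end. In both, the lower bound was under 1 RPM, and MMQuant counted 2 reads of *moody* in cell D, or 0.385 RPM, in place of 10.

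*Indy* encodes a plasma membrane transporter of citrate and related Krebs cycle intermediates that is best known from fat body, gut and oenocytes (chromosome 3L, 18828632 to 18846267, FBgn0036816). It had 845, 1749, 1 and 285 reads in cells 1 to 4, against 5 in cell D. Expression was 7.76, 8.99, 0.32 and 6.03 in cells 1 to 4, with a mean of 5.77 ± 3.84 (SD, n = 4), and 1.01 in cell D, where the count lay at the threshold. The fat body list was likewise highest in cells 1 and 2. Its 10 genes held 4.54%, 3.95%, 0.987% and 1.79% of the assigned reads in cells 1 to 4, against 0.101% in cell D. Of these genes, 8 were at or above 1 RPM in each of cells 1, 2 and 4 and 4 in cell 3, against 6 in cell D, while *Fbp1* and *Fbp2* had 0 reads in every cell. Its genes did not order the cells alike. *Yp1*, *Yp2*, *Yp3* and *fit* were highest in cell 1, whereas *apolpp*, *Lsp2*, *to* and *Cyp4e2* were highest in cell 2, as *Indy* was. The yolk protein genes and *apolpp* were lowest in cell D and not in cell 3. The part of fat body RNA in the *Indy* values was not tested.

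*e* (*ebony*) encodes the enzyme that couples beta-alanine to amines such as dopamine and histamine, and lies on chromosome 3R from 21229839 to 21237177 (FBgn0000527). In the optic lobe it is known from the glia that take up the histamine released by photoreceptors, and outside the brain from the epidermis. It had 98, 16, 1 and 2497 reads in cells 1 to 4, against 106 in cell D. Expression was 4.70, 2.49, 0.32 and 9.14 in cells 1 to 4, with a mean of 4.16 ± 3.77 (SD, n = 4), and 4.50 in cell D. Cell 4 thus stood far above every other cell, while cells 1 and D overlapped. *b* (*black*), whose product makes the beta-alanine that Ebony uses, was on a list of further glial genes and is named here after its values were seen. It had 0, 157, 0 and 2142 reads in cells 1 to 4, against 10 in cell D, so that it too was highest in cell 4. The 10 photoreceptor genes held 1.43%, 1.69%, 0.188% and 4.76% of the assigned reads in cells 1 to 4, against 0.133% in cell D. In cell D, 3743 of the 6556 reads of the list were of *norpA*, named after its values were seen. That gene had 3204, 2453, 18 and 8569 reads in cells 1 to 4. At or above 1 RPM were 9, 9, 8 and 9 of the 10 genes in cells 1 to 4, and 8 in cell D. *ninaA* had 0 reads in every cell, but MMQuant gave it 22, 80, 2 and 19 reads shared with other genes in cells 1 to 4, against 0 in cell D, so its count does not show that it was absent. *inaD* had 0 reads in cell 3, and the rhodopsin gene *ninaE* had 4453 to 99623 reads in the kept cells, against 1492 in cell D. The part of optic lobe or eye RNA in the *e* values was not tested.

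The library of each cell therefore had its own profile of glial reads. Among the 5 cells, none of the 10 genes was highest in cell 1 (14.6% of genes at or above 1 RPM somewhere were) or in cell 3 (10.5%). *nrv2*, *Eaat1* and *Indy* were highest in cell 2 (17.2%), and *repo*, *Gs2*, *moody* and *e* in cell 4 (19.8%). *alrm*, *Gat* and *wrapper* were highest in cell D, where 37.9% of all such genes had their highest value, so that 3 of 10 was no excess there. All 3 genes also had cell 2 as the highest of the kept cells. The classes ordered the cells differently. The mean log2(RPM + 1) of the 3 pan-glial genes was 6.03, 6.53, 4.79 and 8.87 in cells 1 to 4, against 6.80 in cell D. That of the 3 astrocyte-like genes was 4.80, 7.01, 2.63 and 4.53 in cells 1 to 4, against 7.62 in cell D. Cell 4 was thus highest for the mean of the pan-glial genes, for *moody* and for the mean of *Indy* and *e*. By themselves, *nrv2* and *Indy* were highest in cell 2. For the mean of the astrocyte-like genes, cell 4 was behind cells 1, 2 and D. *Eaat1* by itself did not follow that order, since it was higher in cell 4 (8.30) than in cells 1 (8.07) and D (8.13). Against cell 1 the order rested on *Gat*, at 4.99 in cell 4 and 6.33 in cell 1. *alrm* had 1 read in cell 4 and 0 in cell 1. These are means over genes of different length, and only the order of the cells within a class can be compared. Cell 3 had the lowest mean of the pan-glial and astrocyte-like genes and of *Indy* and *e*, while for *moody* it could not be separated from cell D.

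Taken as a sum, the 10 genes made up 0.201%, 0.373%, 0.0755% and 0.563% of the assigned reads in cells 1 to 4, against 0.200% in cell D. The Wilson 95% intervals of cell 1 (0.197% to 0.206%) and cell D (0.196% to 0.204%) overlapped, and the others did not. *Gs2* alone was 60.6%, 47.2%, 62.2% and 71.9% of these reads in cells 1 to 4 and 59.3% in cell D. Without it, the sums were 793, 1967, 285 and 1584 RPM in cells 1 to 4, against 813 RPM in cell D. Cell 2 then exceeded cell 4.

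The make-up of the reads of the remaining 9 genes differed between cells. These shares are of reads, which are not corrected for gene length, and serve only to set 1 cell against another. *Eaat1* was 83.6% of them in cell 3 and 19.8% to 39.7% in the other kept cells, against 34.3% in cell D. *Indy* was 27.2% in cell 1 and 25.8% in cell 2, but 0.0861% in cell 3 and 4.05% in cell 4, against 0.125% in cell D. *e* was 35.5% in cell 4 and at most 3.16% in the other kept cells, against 2.66% in cell D. *Gat* and *alrm* together set cell D apart, where *Gat* held 29.8% and *alrm* 13.6%. In the kept cells *Gat* had the largest share in cell 1, with 311 of 3105 reads, and 4.55%, 0 and 1.95% in cells 2 to 4, and *alrm* held at most 1.49%.

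**Figure D3:**
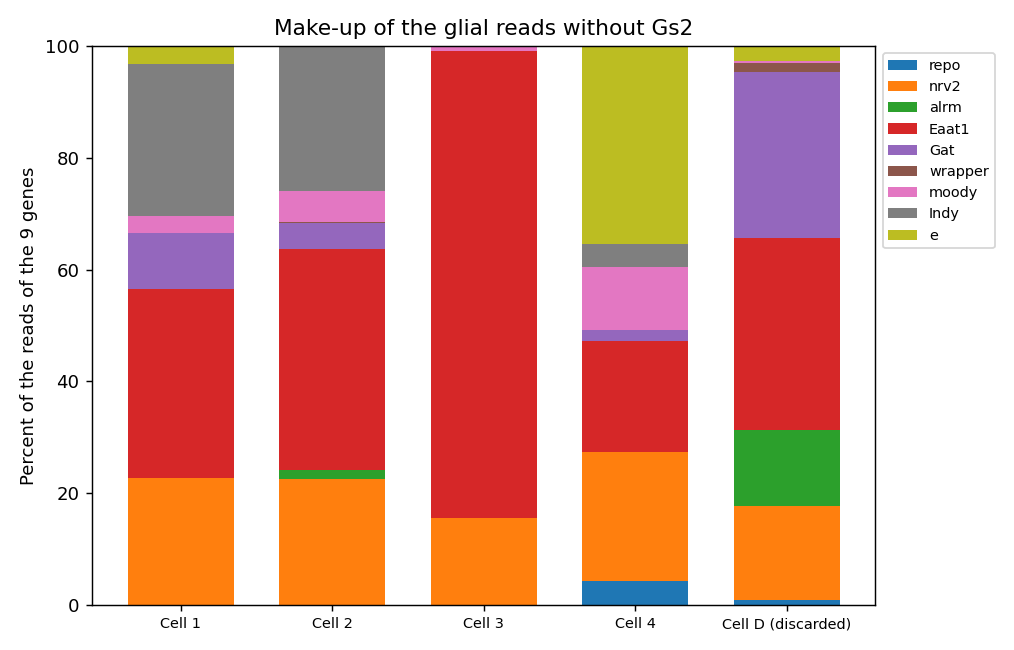
Percent of the reads of the 9 glial marker genes other than *Gs2* that fell on each gene, as a stacked bar for each cell. *Eaat1* fills 83.6% of the bar of cell 3, *e* 35.5% of that of cell 4, and *Gat* 29.8% of that of cell D.

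For each 100 reads of *Eaat1* in the same cell, *Gat* had 29.7, 11.5, 0 and 9.83 reads in cells 1 to 4, against 86.9 in cell D. *moody* had 9.37, 13.7, 0.824 and 56.9 reads per 100 of *Eaat1* in cells 1 to 4, against 0.730 in cell D. The ratio of *Gs2* to *Eaat1* varied less, from 197 to 1290 reads per 100 in the kept cells and 425 in cell D. The reads of the glial genes were therefore not in a fixed ratio across the libraries. Each ratio rests on 1 amplified library per cell, so the part of amplification in these differences was not tested.

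Per kb of exon, the order of the genes within a cell also changed. *Eaat1* came second to *Gs2* in cells 1, 2, 3 and D, at 85.1, 249, 75.9 and 88.8 RPM per kb. In cell 4, *e* was second at 179 RPM per kb, and *nrv2* (103) and *Eaat1* (99.9) followed with overlapping intervals. *Indy* followed them in cells 1 and 2, at 70.2 and 165 RPM per kb. In cell D, *Gat* at 83.7 RPM per kb could not be separated from *Eaat1*, and *alrm* followed at 64.5. Since reads gather at 3' ends, length is only a rough correction here, but without it at most 1 of the 45 pairs of genes in any cell changed its order.

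A longer list of 27 further glial genes was read beside the 10, and 26 of them were matched to the tables. At least 1 RPM was found for 15, 23, 9 and 20 of the 26 in cells 1 to 4, against 21 in cell D. This was 57.7%, 88.5%, 34.6% and 76.9% in cells 1 to 4, where 23.7%, 34.5%, 17.7% and 35.1% of all identifiers were at this level, and 80.8% in cell D, against 40.7% of all identifiers. Over the kept cells, 8 of the 26 were at this level in all 4 (11.3% of all identifiers), 7 in 3 (11.2%), 6 in 2 (10.4%), 2 in 1 (11.4%) and 3 in none (55.7%). The 26 genes summed to 1684, 3230, 480 and 2669 RPM in cells 1 to 4, against 1792 RPM in cell D. As with the 10 markers, cell 3 had the least. *gcm* and *gcm2*, the switch genes of embryonic glial fate, had 0 reads in every cell.

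The astrocyte-like and ensheathing genes of this list were nearly missing from cell 3. The 7 that were matched had 1744, 2217, 18 and 2773 reads in cells 1 to 4, against 3171 in cell D. *Eaat2*, a transporter of acidic amino acids related to *Eaat1*, had 960, 128, 12 and 921 reads in cells 1 to 4, against 1768 in cell D. *Obp44a*, an odorant-binding protein gene of astrocyte-like glia, had 526, 1668, 2 and 1363 reads in cells 1 to 4, against 638 in cell D. *wun2*, a lipid phosphatase gene named after its values were seen, had 125 reads in cell D and a single read, in cell 4, among the kept cells.

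Of the 3 cortex genes, all were at or above 1 RPM in cells 2, 4 and D and only *Glut1* in cells 1 and 3. *zyd*, a calcium exchanger gene of cortex glia, had 0, 144, 1 and 571 reads in cells 1 to 4, against 147 in cell D. In cell 4 it was therefore well above *wrapper*, with its 3 reads. *Glut1*, a glucose transporter gene that neurons use too, had 9 to 93 reads in the kept cells, against 1494 in cell D.

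Among the surface glia genes, *Tret1-1* shared with *moody* a low value in cell D. A trehalose transporter gene of the outer surface glia, it was at 9.12, 10.11, 6.88 and 9.16 in cells 1 to 4, with a mean of 8.82 ± 1.37 (SD, n = 4), and at 3.22 in cell D, where it had 41 reads. The fat body list was also lowest in cell D, at 0.101% of the assigned reads, against 0.987% to 4.54% in the kept cells. So was the photoreceptor list, whereas the neuronal list was highest there. The part of RNA of other cell types in the *Tret1-1* values was not tested. The 7 surface genes summed to 246 to 1365 RPM in the kept cells, against 188 RPM in cell D, but this order rested on *Tret1-1*. Without it, the other 6 summed to 42.1, 259, 129.5 and 144 RPM in cells 1 to 4, against 179.9 RPM in cell D, with *Nrx-IV* alone at 109 RPM in cell 3 and 116 RPM in cell D. *Nrx-IV*, a septate junction gene named after its values were seen, had 3, 142, 444 and 172 reads in cells 1 to 4, against 572 in cell D. *Cont*, a further junction gene named likewise, had 43, 228, 1 and 9 reads in cells 1 to 4, against 195 in cell D. *Gli*, *Oatp58Dc* and *Mdr65*, also named after their values were seen, were low in cells 3 and D, as *moody* was, but highest in cell 2. *Gli* had 1, 50, 0 and 15 reads in cells 1 to 4, against 0 in cell D. *Oatp58Dc* had 0, 52, 1 and 6, against 2 in cell D, and *Mdr65* had 0, 5, 0 and 0, against 0. The 7 surface genes thus did not all share an order of the cells, and the sums rested on single genes. Among them, the junction gene *Lac*, which neurons also express, was at 4.96, 6.93, 4.40 and 6.63 in cells 1 to 4 and at 4.61 in cell D.

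Among the general glial genes, the gap junction genes *Inx2* and *ogre* had their lowest kept value in cell 3. So did *Gs1*, *loco*, *pnt* and *NLaz*, the last 2 named after their values were seen, though the intervals of *Gs1* and *loco* overlapped those of another kept cell. Cell 3 also had the fewest genes at or above 1 RPM, 3097. *Inx2* had 1174, 1769, 584 and 1608 reads in cells 1 to 4, a mean expression of 8.23 ± 0.77 (SD, n = 4), and 311 reads or 6.01 in cell D. *ogre* was at 5.98, 7.79, 3.06 and 7.29 in cells 1 to 4, with a mean of 6.03 ± 2.12 (SD, n = 4), and at 5.32 in cell D. *Gs1*, the mitochondrial glutamine synthetase gene, was at 6.28, 8.02, 6.20 and 6.82 in cells 1 to 4, with a mean of 6.83 ± 0.84 (SD, n = 4), and at 8.42 in cell D. *loco*, which encodes a regulator of G-protein signaling in glia, was low in the kept cells at 2.94 ± 0.52 (SD, n = 4), with 15 to 38 reads, against 5.94 in cell D with 297 reads.

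**Figure D4:**
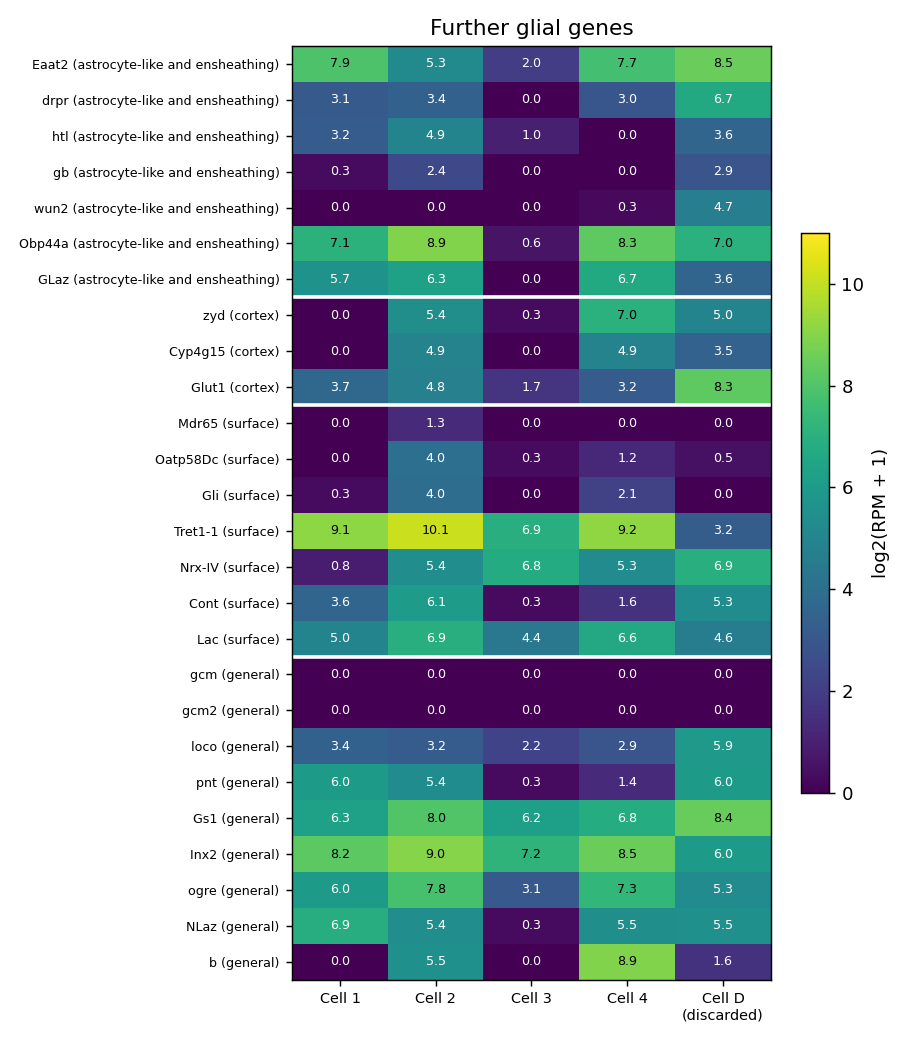
Expression of the 26 further glial genes as log2(RPM + 1), by color and by the number in each box, with genes in rows grouped by glial type and cells in columns. *Tret1-1* is at 6.88 or above in the kept cells and at 3.22 in cell D, and the column of cell 3 holds 9 genes at or above 1 RPM.

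The glial sums were set beside those of other cell types. The 11 neuronal genes that were matched held 0.137%, 0.296%, 0.559% and 0.527% of the assigned reads in cells 1 to 4, against 2.21% in cell D. The 10 glial genes held more than that in cells 1, 2 and 4, at 0.201%, 0.373% and 0.563%, and less in cell 3, at 0.0755%, and in cell D, at 0.200%. This order rested on *Gs2*. Without it, the glial genes summed to 793, 1967, 285 and 1584 RPM in cells 1 to 4 and 813 RPM in cell D, and the neuronal list exceeded them in every cell, with 1375, 2962, 5592 and 5275 RPM in cells 1 to 4 and 22074 RPM in cell D. The 2 lists differ in the number and length of their genes, so their levels cannot be compared directly. At or above 1 RPM were 7, 11, 10 and 11 of the 11 neuronal genes in cells 1 to 4, against 11 in cell D. *elav*, *nSyb* and *Syt1* had 1, 367 and 3 reads in cell 1 and 3316, 6001 and 6027 in cell D. The list was mixed in cell 1. There *brp* had 0 reads and *CadN* 3, but *cpx* had 2689, *nrv3* 1516, *fne* 298, *Syx1A* 297, *Syn* 172 and *Snap25* 37. Cell 1 had the highest hemocyte sum, at 0.159%, with 3976 of its 6237 reads on *Ppn*, an extracellular matrix gene named after its values were seen, 795 on *NimC1* and 754 on *Hml*, against 0.00338% to 0.0202% in the other kept cells and 0.00466% in cell D. The hemocyte gene *He* had at most 5 reads in any cell. Muscle genes held 0.0179% to 0.104% in the kept cells, against 0.00216% in cell D. *Mhc* had 253 to 773 reads in the kept cells and 34 in cell D, while *Act88F* had 426 reads in cell 4 and at most 2 elsewhere, and the troponin T gene *up* (141 reads) was highest there. Cell 3, the *Dh44*-rich cell, had the lowest glial and fat body sums of the kept cells as well as the lowest photoreceptor sum. The part of the cell types in the glial values was not tested.

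**Figure D5:**
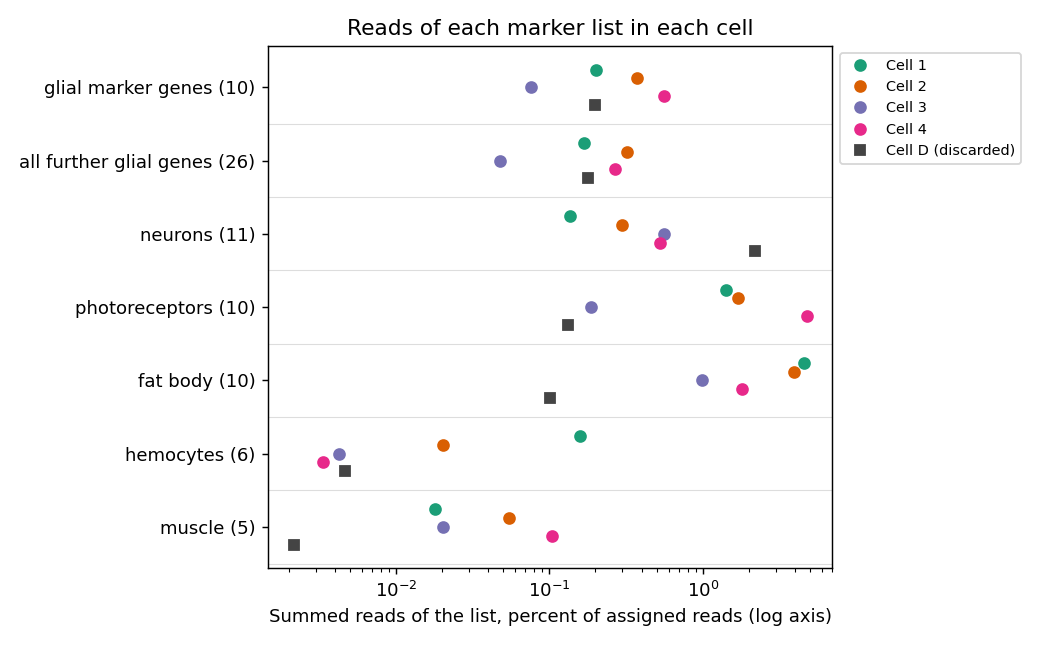
Summed reads of each list of marker genes as percent of the reads assigned to genes, on a log axis, with 1 point per cell and the number of genes of each list in brackets. The glial points span 0.0755% to 0.563%, the neuronal list is highest in cell D at 2.21%, and the photoreceptor and fat body lists are highest in cell 4 and cell 1, at 4.76% and 4.54%.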

How the data were processed

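RNA of each PI cell was amplified from poly(A) by the authors in 3 rounds and sequenced without strand. Per the labels and the methods of the study, reads were trimmed with Trim Galore and PRINSEQ, mapped to dm6 with RNA STAR and counted on the Ensembl BDGP6.87 annotation, and MMQuant was run on the alignments. The authors deposited whole-number counts per gene without normalization. The first 4 rows of each STAR table are totals of unassigned reads and were left out. They include 4.42% to 6.18% of uniquely mapped reads that lay where genes overlap.

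RPM was computed from the unstranded column, with its own sum as denominator, and a pseudocount of 1 RPM. Symbols were matched to 17179 of 17453 identifiers. *AANAT1*, *para* and *wupA* of the lists were not matched. Positions and exon lengths are those of Ensembl release 115 (BDGP6.54, dm6 coordinates). The counts rest on an earlier annotation. No model was fitted, and the interval and scaling steps were tested on simulated data. Python 3.11.15, numpy 2.4.6, pandas 2.3.3, scipy 1.17.1 and matplotlib 3.10.9 were used.

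The members, the marker lists and the alternatives were chosen with earlier results of these data known. All 10 members were to be named, as were further glial genes at 1 RPM in all kept cells or among the 2 highest of their class, the first 3 genes of each other list, and genes that share reads with a member; of the last 2 kinds not all are named. The PI peptide genes were added later. The alternatives were other denominators and counts, thresholds of 10 RPM, 100 RPM and 1 read, a pseudocount of 0.1 RPM, and other sets of cells.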

Additional observations from a re-analysis of the deposited data

Results flagged for a closer look

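A value of 1 kept cell was looked at again where its gap to the nearest of the other kept cells, divided by the range of the 4, was above Dixon's 95% critical value for 4 values. Of 31 genes and list sums tested on the log2 scale, 4 passed. Chance flags about 1 in 20 if values are independent and normal, which does not hold here. A gene with reads in 1 kept cell and about 0 in the others passes by construction. *repo* passed with 0.946 because of cell 4 (6.10, against 0.33, 0 and 0 in cells 1 to 3). With every MMQuant read shared with *CG7156* given to *repo*, its value was 0.654, which is below the critical value. *alrm* passed with 0.940 because of cell 2 (4.92, against 0, 0 and 0.29 in cells 1, 3 and 4). Both genes also had reads in cell D, at 3.09 and 6.80. The sum of the 7 further astrocyte-like and ensheathing genes passed with 0.923 because cell 3 was low, at 4.41 RPM, against 445, 642 and 624 RPM in cells 1, 2 and 4. The sum of the PI peptide genes passed with 0.940 because cell 3 was high, at 13.4% of the assigned reads, against 0.0113% to 0.0173% in the other kept cells. That list was added later, and *Dh44* held 538167 of its 546823 reads in cell 3, so this flag restates the *Dh44* count. The cells that stood apart differed between these results, and no cause was tested.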

How the results depend on the processing

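The number of the 10 genes at or above 1 RPM in at least 1 kept cell was 8 to 10, in at least 2 kept cells 7, and in all kept cells 4 to 7, when each cell was left out in turn. The upper value of the last came without cell 3. A threshold of 100 RPM left 6 genes in at least 1 kept cell and 2 in all. Giving *repo* its shared MMQuant reads, or summing the stranded counts, changed the number in at least 2 kept cells to 8, within 1.5 times. MMQuant put *moody* (0.385 RPM) and *Indy* (0.962 RPM) of cell D under the threshold. Divided by every uniquely mapped read, the summed RPM was 1250, 2304, 512 and 3236 in cells 1 to 4 and 1170 in cell D, in place of 2013, 3726, 755, 5630 and 1998, which by construction comes from the larger denominator. With the stranded counts or MMQuant, the sum of cell D (1828 to 1935) was above that of cell 1 (1670 to 1803), and the other cells kept their order. Of the 110 alternative means of single genes, 107 moved by less than the SD between kept cells, which is a wide margin (0.78 to 3.84). The 3 that moved more were *repo* at 6.10 and *alrm* at 4.92 over cells with at least 3 reads only, and *wrapper* at -1.15 with a pseudocount of 0.1 RPM. These follow from cells with few or no reads. Counts lay near the threshold or at 0 for *wrapper*, for *moody* in cells 3 and D and for *Indy* in cell D. The same held for *alrm* in cells 1, 3 and 4, for *Gat*, *Indy* and *e* in cell 3, and for *repo* outside cells 4 and D. Whether depth, amplification or a truly low level gave these values was not tested. The values of *repo* in cells 1 and 2 also depend on reads where it overlaps *CG7156*. MMQuant listed 23 and 9 reads as shared there, while the stranded counts of *repo* summed to 38 and 13. With 1 condition and 1 discarded cell, no test between groups could be made.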

Other observations

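The 2 strands of the count tables gave a further reading of *Gs2*. Over the genes with at least 1000 reads, the median share was 54.2% to 54.9% in the kept cells and 54.6% in cell D. The share varied between genes, with a 5th to 95th percentile of 48.5% to 60.5% in cell 3. *Gs2* had 54.4%, 54.8% and 51.1% in cells 1, 2 and 4, against 51.6% in cell D, but 36.5% in cell 3, with 700 reads on 1 strand and 1217 on the other. In cell 3, 5 of the 708 genes with at least 1000 reads had a share as low or lower. *Eaat1* in the same cell had 57.4%. The cause was not tested.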
